A study of Mus musculus with 20 samples.

Results

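The genes described here are the matrix metalloproteinases (Mmp), the disintegrin metalloproteases (Adam), their thrombospondin-repeat relatives (Adamts), the Adamts-like proteins (Adamtsl) and the tissue inhibitors of metalloproteinases (Timp), in cardiac cells of *Gadlor*-KO and WT mice under pressure overload. Members were taken by gene symbol, and for each gene and table the transcript with the highest mean was used. In all, 50 of 15015 named genes qualified, made up of 15 Mmp, 4 Timp, 15 Adamts, 5 Adamtsl and 11 Adam genes. Endothelial cells (ECs) had 44 of them among 13929 listed genes, fibroblasts (FBs) 49 among 13563 and cardiomyocytes (CMs) 42 among 13038, with 41 in all 3 cell types.

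The data were 20 samples of mRNA sequencing: *Gadlor*-KO ECs (n = 4) and WT ECs (n = 4), *Gadlor*-KO FBs (n = 3) and WT FBs (n = 3), and *Gadlor*-KO CMs (n = 3) and WT CMs (n = 3). *Gadlor*-KO mice carry a homozygous, systemic CRISPR-Cas9 deletion on chromosome 16 that removes the long non-coding RNA genes *Gadlor1* and *Gadlor2*. The line goes back to a single embryonic stem cell clone (G4 line) injected into C57BL/6 blastocysts, and WT mice were littermates. Mice of both genotypes had been 8 to 10 weeks old when they underwent transverse aortic constriction (TAC), and cells were isolated 2 weeks later. No unoperated mice were part of these data, so every comparison is of *Gadlor*-KO with WT samples within the overloaded heart. In FBs and CMs the genotypes also differed in sex, cell type markers and mitochondrial share, as given below. ECs were purified with beads against CD146, FBs were enriched from the remaining cells with feeder removal beads, and CMs were isolated by Langendorff perfusion and sedimentation. The labels do not say whether each sample came from a separate mouse, so the p-values speak to sample-to-sample spread alone, which may be technical.

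Metalloproteinases of the Mmp family cut collagens, gelatins and other components of the extracellular matrix, and the Timp proteins bind and block their active sites. Adam proteases sit in the membrane and shed the outer parts of ligands and receptors, while Adamts proteases are secreted and cut proteoglycans, procollagens or von Willebrand factor. The Adamtsl proteins share the accessory domains of Adamts proteases but have no protease domain. In the overloaded heart these genes are known for their part in fibrosis, in the turnover of the interstitial matrix and in the remodelling of vessels.

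What makes these proteins proteases is a short zinc-binding site with 3 histidines, which is shown here because it separates the members that can cut from those that cannot. In the longest GENCODE vM21 coding sequence of each gene (build mm10) the site was found in 38 of 50 members, against 76 of 21614 protein-coding genes in all (0.352%). The 12 members without it were the 4 Timp genes, the 5 Adamtsl genes, *Adam11*, *Adam22* and *Adam23*. The sites below belong to the 5 proteases that fell in *Gadlor*-KO ECs (the first 5 lines), to the other 2 Adamts genes with asparagine at the same place, and to 4 further proteases that the results below turn on. They are given 5′ to 3′ as mRNA-sense DNA, with the 3 histidine codons and the eighth codon of the site in capitals.
Adamts1: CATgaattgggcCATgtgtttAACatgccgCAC
Adamts4: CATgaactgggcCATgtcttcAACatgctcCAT
Adamts8: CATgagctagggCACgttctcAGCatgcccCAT
Adam8: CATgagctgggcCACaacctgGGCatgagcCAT
Adam19: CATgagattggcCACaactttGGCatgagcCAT
Adamts9: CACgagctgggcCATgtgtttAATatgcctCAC
Adamts15: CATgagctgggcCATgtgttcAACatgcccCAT
Mmp14: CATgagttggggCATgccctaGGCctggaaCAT
Mmp2: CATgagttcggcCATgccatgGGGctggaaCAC
Adam15: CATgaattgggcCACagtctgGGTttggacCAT
Adamts5: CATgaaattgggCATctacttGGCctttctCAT
The eighth codon encoded asparagine in *Adamts1*, *Adamts4*, *Adamts9* and *Adamts15* and serine in *Adamts8*, and glycine in the 32 other sites whose sequence was read. The *Adamts1* site straddles exons 3 and 4 of its gene on chromosome 16 (chr16:85799191-85799545, minus strand), and the *Adamts4* site exons 3 and 4 on chromosome 1 (chr1:171253210-171253915, plus strand). The sites of *Mmp14* (chr14:54437627-54437659, exon 5, plus strand) and *Mmp15* (exon 5, chromosome 8) each lie within a single exon.

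Values are log2 CPM (read counts scaled to a common library size) as deposited, each table scaled on its own. Effective library sizes were 40.1 to 55.4 M reads in *Gadlor*-KO ECs and 45.1 to 54.8 M reads in WT ECs, 22.9 to 33.8 M reads in *Gadlor*-KO FBs and 15.04 to 59.8 M reads in WT FBs, and 10.6 to 16.3 M reads in *Gadlor*-KO CMs and 17.0 to 20.2 M reads in WT CMs. Endothelial markers were high in the EC samples of both genotypes (means over 10 markers of 8.67 to 8.82 in *Gadlor*-KO and 8.60 to 8.78 in WT). They summed to 5661.7 to 6212.5 CPM in *Gadlor*-KO ECs and 5345.4 to 6097.4 CPM in WT ECs. Pericyte and smooth muscle markers there summed to 2573.6 to 2993.8 CPM in *Gadlor*-KO and 2485.2 to 3097.7 CPM in WT. Fibroblast markers there summed to 473.2 to 1126.6 CPM in *Gadlor*-KO and 741.5 to 1375.9 CPM in WT. The part of these cells in the EC values was not tested. The FB samples carried high fibroblast markers throughout, but their endothelial markers summed to 922.7 to 1573.9 CPM in *Gadlor*-KO, against 544.7, 53.5 and 92.5 CPM in the WT samples WT-260, WT-277 and WT-283. Mitochondrially encoded genes took 48.0, 46.3 and 60.9% of the CPM in *Gadlor*-KO FBs and 73.6, 3.81 and 5.69% in the WT samples WT-260, WT-277 and WT-283, so that WT-260, also the smallest library (15.04 M reads), was on this measure nearer to the *Gadlor*-KO samples than to the other WT samples. Their share was 75.6, 65.1 and 72.1% in *Gadlor*-KO CMs and 46.8, 46.6 and 26.7% in WT CMs, without overlap, and 8.03 to 20.4% in *Gadlor*-KO ECs and 5.25 to 8.59% in WT ECs. The 10 cardiomyocyte markers summed to 1126.9, 688.3 and 7151.0 CPM in *Gadlor*-KO CMs and 32961.3 to 48745.8 CPM in WT CMs, and all 10 passed the test as lower. In the *Gadlor*-KO samples 1 and 2 they summed to less than the fibroblast markers, and in the *Gadlor*-KO sample 3 and all WT CMs to more. In CMs 9 of 10 fibroblast, 10 of 10 endothelial and 10 of 10 macrophage markers were higher in *Gadlor*-KO. By Y-linked genes, the ECs held 2 male and 2 female libraries per genotype. Sex was not balanced elsewhere: the 4 Y-linked genes summed to 37.4, 0.1 and 0.2 CPM in *Gadlor*-KO FBs and 32.7, 42.5 and 1.0 CPM in WT FBs, and to 27.6, 0.5 and 20.8 CPM in *Gadlor*-KO CMs and 0.3, 45.8 and 4.6 CPM in WT CMs, where the value of WT sample 6 lay between the levels of male and female libraries.

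The 3 cell types differed in the proteases and inhibitors they carried. Levels are compared between genes per kb of transcript and as a description only, because each table was normalized separately. WT ECs had *Timp3*, a matrix-bound inhibitor, as their highest member (8.30 log2 CPM per kb), then *Adamts1*, a protease of versican and aggrecan (7.65), and *Adam15*, an endothelial disintegrin protease (6.98). WT FBs had *Mmp2*, the gelatinase made by mesenchymal cells (7.97), *Timp2*, its partner in activation and inhibition (7.87), and *Timp3* (6.58) at the top. WT CMs had much lower levels, led by *Adamtsl5*, which binds fibrillin microfibrils (5.61), *Mmp15*, a membrane-type Mmp (3.71), and *Adamtsl4*, another fibrillin-binding protein (3.40). At the other end, *Adamts12* (-4.97), *Adam23* (-4.65) and *Adamtsl1* (-4.57) were the lowest in WT CMs, each read from at most 9 reads per WT sample. *Mmp3*, *Mmp12*, *Mmp13*, *Mmp16* and *Adamts19* were listed in FBs only, *Mmp25* in ECs only, *Mmp9* and *Adam33* in ECs and FBs, and *Adamts3* in FBs and CMs.

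**Figure D1:**
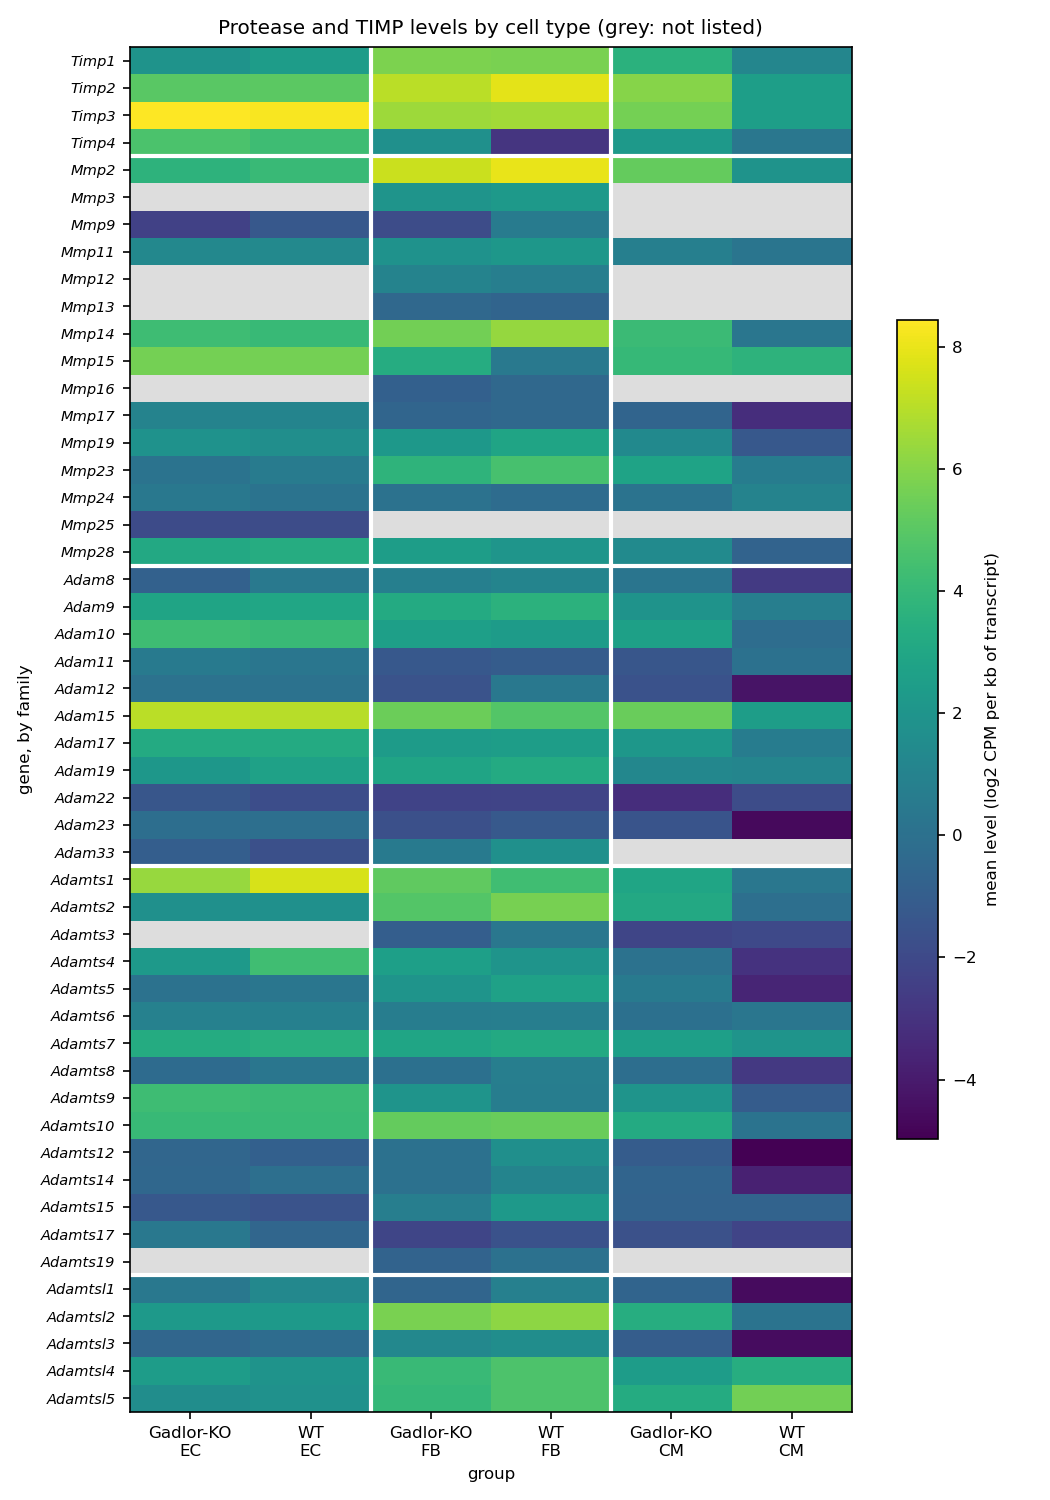
Mean level of each of the 50 genes (rows, by family) in each group (columns, *Gadlor*-KO left of WT within each cell type), as log2 CPM per kb of transcript, with grey where a gene was not listed. *Timp3* and *Adamts1* lead in WT ECs at 8.30 and 7.65, *Mmp2* and *Timp2* in WT FBs at 7.97 and 7.87, and *Adamtsl5* in WT CMs at 5.61.

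The balance of inhibitors to proteases also differed by cell type. Summed over the 4 Timp genes and divided by the sum over the Mmp genes, both in CPM per kb, the ratio was 3.68 to 4.48 in *Gadlor*-KO ECs and 3.11 to 4.53 in WT ECs. It was 1.05 to 1.13 in *Gadlor*-KO FBs and 0.881 to 1.17 in WT FBs, and 2.59, 0.977 and 1.14 in *Gadlor*-KO CMs against 0.876, 0.874 and 0.448 in WT CMs. Only in CMs did the genotypes not overlap, and there the *Gadlor*-KO sample 1 was far above the other 2. *Timp3* made up 83.1 to 86.2% of the Timp sum in *Gadlor*-KO ECs and 82.3 to 86.0% in WT ECs, whereas *Timp2* was the largest share in FBs, at 42.4 to 51.3% in *Gadlor*-KO and 57.2 to 62.9% in WT. Among the Mmp genes, *Mmp2* gave 60.6 to 67.1% of the sum in *Gadlor*-KO FBs and 61.6 to 67.3% in WT FBs, while *Mmp15* led in ECs with 41.8 to 55.8% in *Gadlor*-KO and 40.6 to 51.7% in WT.

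In ECs the deletion went with lower levels of a small set of secreted and shedding proteases, and with no change in the gelatinases or the inhibitors that passed the test. In all, 6 of 44 members were lower in *Gadlor*-KO at an adjusted p under 0.05 and a fold above 1.5, a share of 13.6% against 5.31% of all genes, and 0 were higher, against 2.08% of all genes. They were 3 Adamts genes (*Adamts1*, *Adamts4*, *Adamts8*), *Adamtsl1* and 2 Adam genes (*Adam8*, *Adam19*). Groups did not overlap for 5 members, all lower in *Gadlor*-KO (11.4%, against 26.2% of all genes not overlapping in either direction and 12.6% with all *Gadlor*-KO samples below). The median log2 fold change over the 44 members was -0.05, and 0.03 over all genes. Every adjusted p here comes from limma with Benjamini-Hochberg adjustment over all genes of the table, and every fold change is *Gadlor*-KO over WT. Of the members given values for ECs, *Adamts5*, *Adamts9*, *Adamts12*, *Adamts15*, *Adamts17* and *Adamtsl4* were chosen after their values were seen.

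*Adamts1*, which cuts versican and aggrecan and restrains vessel growth, was the second highest member in WT ECs. It measured 8.74, 8.78, 8.34 and 8.67 log2 CPM in *Gadlor*-KO ECs and 9.96, 9.81, 10.18 and 9.81 in WT ECs. All *Gadlor*-KO values lay below all WT values, and the genotypes differed by far more than the spread within either (log2 fold change -1.31, SE 0.12, adjusted p = 6.07e-05 by limma). *Adamts1* made up 53.7 to 60.0% of the summed Adamts level per kb in *Gadlor*-KO ECs and 67.2 to 77.7% in WT ECs, and that sum was 123.4 to 151.8 CPM per kb in *Gadlor*-KO ECs and 260.4 to 305.7 CPM per kb in WT ECs. *Adamts1* (chr16:85793827-85803113) lies on the same chromosome as the deleted segment but far from it, and a link between its level and that segment was not tested. Its neighbour *Adamts5*, an aggrecan-cutting protease 53.1 kb away on the same strand, measured 3.30 to 3.69 in *Gadlor*-KO ECs and 3.66 to 3.85 in WT ECs and did not pass the test (-0.26, adjusted p = 0.0582).

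*Adamts4*, another proteoglycan-cutting protease, had the largest fold of the 6. It measured 4.25, 4.47, 3.97 and 4.86 log2 CPM in *Gadlor*-KO ECs and 6.56, 6.53, 6.10 and 6.63 in WT ECs, with no overlap (log2 fold change -2.07, SE 0.19, adjusted p = 0.000208). *Adamts8*, related to *Adamts1* and *Adamts4* in sequence and function, was low in ECs. It measured 1.57, 1.64, 1.34 and 1.68 in *Gadlor*-KO ECs and 2.11, 2.16, 1.77 and 2.58 in WT ECs, again with no overlap (-0.60, SE 0.16, adjusted p = 0.0273). It lies 20.1 kb from *Adamts15*, a versican-cutting relative on the opposite strand of chromosome 9, which measured 1.13 to 1.46 in *Gadlor*-KO ECs and 0.84 to 1.13 in WT ECs (0.26, adjusted p = 0.195). With asparagine or serine as the eighth residue of the zinc-binding site, 3 of 5 Adamts genes in the EC table fell, *Adamts9* (0.11, adjusted p = 0.697) and *Adamts15* not passing the test. Of the 8 Adamts genes with glycine there, 0 passed, the largest difference being 0.93 for *Adamts17* (adjusted p = 0.081). This is a description of 13 genes, chosen after their values were seen, and no test was made of it.

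*Adamtsl1*, a matrix protein without protease activity, measured 3.52, 3.57, 3.27 and 3.16 log2 CPM in *Gadlor*-KO ECs and 4.31, 4.10, 4.32 and 4.29 in WT ECs. These values were tight within each genotype and did not overlap (log2 fold change -0.87, SE 0.10, adjusted p = 0.000301). *Adam8*, a sheddase of leukocytes and activated endothelium, was near the bottom of the range and was read from 48, 72, 123 and 113 reads in *Gadlor*-KO ECs and 156, 194, 349 and 179 reads in WT ECs. Its levels were 0.04, 0.86, 1.16 and 1.19 in *Gadlor*-KO ECs and 1.80, 1.97, 2.68 and 1.81 in WT ECs (-1.25, SE 0.28, adjusted p = 0.0143). *Adam19*, a sheddase of neuregulins, measured 4.75, 4.54, 4.89 and 5.02 in *Gadlor*-KO ECs and 5.58, 5.73, 4.91 and 5.33 in WT ECs. Here the WT sample 34 lay within the *Gadlor*-KO range (-0.59, SE 0.18, adjusted p = 0.0441).

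**Figure D2:**
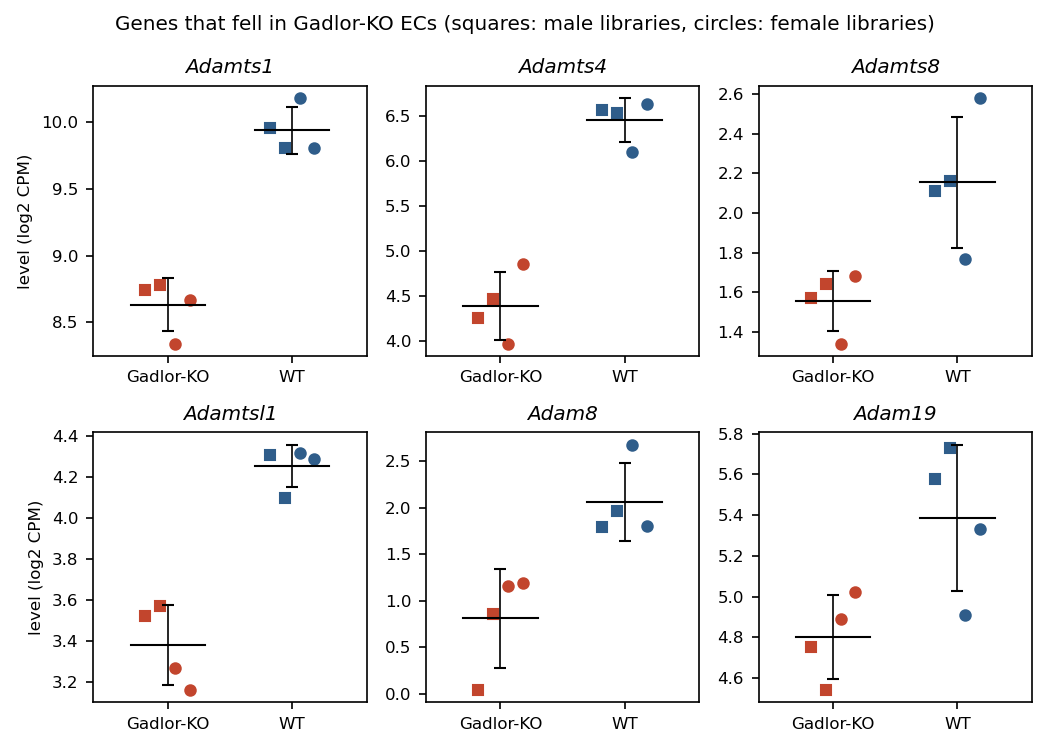
Level (log2 CPM) of the 6 genes that fell in *Gadlor*-KO ECs, with *Gadlor*-KO left and WT right (n = 4 each), squares for male and circles for female libraries, a line at the mean and bars of 1 SD. *Adamts1*, *Adamts4*, *Adamts8*, *Adamtsl1* and *Adam8* do not overlap between genotypes, and *Adam19* does, through the WT value of 4.91.

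Leukocyte markers were uneven between these EC samples, and their part in the result was not tested. The 10 macrophage markers, none of which was at 0 in any EC sample, summed to 201.6, 314.9, 61.4 and 62.9 CPM in the *Gadlor*-KO samples KO-105, KO-108, KO-131 and KO-133 and to 176.4 to 320.2 CPM in WT, and 0 of 10 passed the test. The 4 of 10 neutrophil markers that were listed summed to 5.0, 5.0, 11.1 and 15.3 CPM in the same *Gadlor*-KO samples and to 9.8 to 21.9 CPM in WT, and 0 of 4 passed. *Adam8* was lowest in the *Gadlor*-KO sample KO-105 (0.04), where macrophage markers were within the WT range and neutrophil markers below it. Within the 2 males per genotype, a split made after the data were seen, the log2 fold changes were -1.12 for *Adamts1*, -2.18 for *Adamts4*, -0.66 for *Adamtsl1*, -1.43 for *Adam8* and -1.01 for *Adam19*, all past both thresholds, and -0.53 for *Adamts8* (adjusted p = 0.0622). Within the 2 females per genotype they were -1.49 for *Adamts1* and -1.09 for *Adamtsl1*, both past the thresholds. There the other 4 were -1.95 for *Adamts4* (adjusted p = 0.0707), -1.07 for *Adam8* (0.0629), -0.67 for *Adamts8* (0.186) and -0.17 for *Adam19* (0.496), while *Adamts12* (0.71) and *Adamts17* (1.67) passed as higher. Whether the effects differ between the sexes was not tested. The *Adam19* call also ended when any of 7 of the 8 samples was left out (-0.66 to -0.48, adjusted p = 0.0543 to 0.105), and the *Adamts8* call when the *Gadlor*-KO sample KO-131 or the WT samples 31, 32 or 35 were (-0.61 to -0.45, adjusted p = 0.0564 to 0.0644). With CPM computed over nuclear genes, *Adam19* (-0.55) and *Adamts8* (-0.56) were under the fold threshold. On log2(CPM + 5), which shrinks the change of low genes, *Adam8* (-0.44), *Adam19* (-0.52) and *Adamts8* (-0.26) were under it.

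Members that did not pass included most of the highly expressed ones. *Timp3* measured 10.58 to 10.85 log2 CPM in *Gadlor*-KO ECs and 10.47 to 10.62 in WT ECs (log2 fold change 0.14, SE 0.09, adjusted p = 0.268), and *Adam15* 8.45 to 8.70 in *Gadlor*-KO and 8.40 to 8.66 in WT (0.07, SE 0.08). *Timp1*, *Timp2* and *Timp4* gave -0.51 (SE 0.29), -0.03 (SE 0.12) and 0.36 (SE 0.33). The gelatinases *Mmp2* and *Mmp9* gave -0.44 (SE 0.37) and -1.14 (SE 0.40, adjusted p = 0.0666), and *Mmp9* was read from 16 to 53 reads in *Gadlor*-KO ECs and 42 to 119 reads in WT ECs. *Mmp14*, the membrane protease that activates *Mmp2*, gave 0.20 (SE 0.24). *Adam10* and *Adam17*, the main sheddases of Notch receptors and of *Tnf*, gave 0.15 (SE 0.12) and -0.04 (SE 0.07). *Adamtsl4* reached an adjusted p of 0.0459 as higher in *Gadlor*-KO (0.51, SE 0.15), below the fold threshold. By adjusted p alone it was the 1 member higher, beside 1397 of 13929 genes.

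Some genes that work beside these proteases also passed in ECs, where 5.31% of all genes were called lower and 2.08% higher. In the shed ligands and receptors, 8 of 23 genes fell and 1 rose, among them *Icam1*, the leukocyte adhesion molecule (-1.76, SE 0.08, adjusted p = 3.79e-06), *Hbegf*, an EGF receptor ligand (-1.65, SE 0.11, adjusted p = 1.51e-05), and *Selp*, the platelet and endothelial selectin (-1.92, SE 0.20, adjusted p = 0.000357). The gene that rose, named after its value was seen, was *Nrg1*, the neuregulin that endothelial cells release to cardiomyocytes (1.77, SE 0.43, adjusted p = 0.0246). Of the 6 genes of plasminogen activation, 2 fell, namely *Plau*, the urokinase that turns plasminogen into plasmin (-0.99, SE 0.18, adjusted p = 0.00396), and its receptor *Plaur* (-0.68, SE 0.14, adjusted p = 0.00855). Of 10 proteoglycan and other Adamts substrates, *Thbs1* (thrombospondin, -1.16, SE 0.20) and *Acan* (aggrecan, -0.66, SE 0.15) fell. Of 13 activators and partners, the proprotein convertases *Pcsk5* and *Pcsk6* fell, both by 0.59 on the log2 scale. The lists of cathepsins (13 genes), other matrix proteases (11) and other protease inhibitors (10) had 0 called. Over the lists of shed proteins and plasminogen genes the medians were -0.32 and -0.31, beside 0.03 over all genes.

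In FBs, the main source of interstitial matrix, no member passed the thresholds by limma, and 0 by voom on recovered reads. Over all 13563 genes, 1 was higher (0.00737%) and 0 were lower (0.0%). By an unadjusted p under 0.05 with a fold above 1.5, 13 of 49 members were lower in *Gadlor*-KO (26.5%, against 4.38% of all genes) and 4 were higher (8.16%, against 7.03%). All *Gadlor*-KO values lay below all WT values for 14 of 49 members (28.6%, against 9.09% of all genes) and above for 4 (8.16%, against 12.2%), so that 18 did not overlap (36.7%, against 21.3%). The median log2 fold change was -0.37 over the members and 0.01 over all genes, and 37 of 49 members were negative. The genes named next, other than the Timp genes, *Mmp2*, *Mmp9*, *Mmp14* and *Adamts1*, were chosen after their values were seen.

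Most of the non-overlapping lower values belonged to Adamts genes and to proteases or inhibitors of the collagenous matrix. *Mmp9*, the gelatinase of leukocytes, measured 0.46, 0.20 and -1.25 log2 CPM in *Gadlor*-KO FBs and 2.54, 1.79 and 2.52 in WT FBs (log2 fold change -2.48, SE 0.49, adjusted p = 0.141). The groups did not overlap, but *Mmp9* rested on 41, 38 and 9 reads in *Gadlor*-KO FBs against 87, 205 and 322 reads in WT FBs. *Adamts15* measured 3.73, 2.97 and 3.21 in *Gadlor*-KO FBs and 4.53, 5.50 and 4.30 in WT FBs (-1.47, SE 0.35, adjusted p = 0.165). *Adamts12*, which cuts cartilage oligomeric matrix protein, measured 2.74, 3.12 and 3.46 in *Gadlor*-KO FBs and 3.53, 5.79 and 5.06 in WT FBs (-1.69, SE 0.55, adjusted p = 0.24). For *Adamts12* the WT sample WT-260 was close to the *Gadlor*-KO samples, and the other 2 WT samples were well above. The procollagen N-proteinases *Adamts2*, *Adamts3* and *Adamts14*, which trim fibrillar procollagens, gave -0.85 (SE 0.41), -1.31 (SE 0.37) and -1.06 (SE 0.27). Their adjusted p values by limma were 0.399, 0.193 and 0.173. For *Adamts2* the groups overlapped (7.38 to 8.03 in *Gadlor*-KO FBs and 7.67 to 9.23 in WT FBs), and for *Adamts3* and *Adamts14* they did not. *Mmp2* and *Mmp14* measured 8.85 to 9.22 and 6.84 to 7.03 in *Gadlor*-KO FBs and 8.78 to 10.30 and 6.91 to 8.43 in WT FBs (-0.61, SE 0.39, and -0.73, SE 0.36), with overlap in both. *Timp2* measured 8.96, 8.87 and 9.06 in *Gadlor*-KO FBs and 9.31, 10.15 and 9.82 in WT FBs, without overlap (-0.79, SE 0.27, adjusted p = 0.245). Fibroblast markers were lower in the same samples, summing to 10579.0, 10107.2 and 12095.5 CPM in *Gadlor*-KO FBs and 12982.6, 27792.3 and 18766.9 CPM in WT FBs (median log2 fold change -0.75, 0 of 10 called, none at 0). The 7 epicardial markers listed summed to 23.1, 41.2 and 32.6 CPM in *Gadlor*-KO FBs and 79.0, 303.7 and 69.4 CPM in WT FBs (median -3.38, 0 of 7 called, 1 at the floor in KO-240), and the part of either list in the protease values was not tested.

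The members with the largest positive values were *Timp4* and *Mmp15*. *Timp4*, an inhibitor typical of heart muscle and vessels, measured 5.77, 3.34 and 3.59 log2 CPM in *Gadlor*-KO FBs and 2.51, -2.79 and -0.98 in WT FBs, where it rested on 85, 7 and 27 reads (log2 fold change 4.66, SE 1.40, adjusted p = 0.223). *Mmp15* measured 5.47, 6.08 and 5.53 in *Gadlor*-KO FBs and 4.24, 1.86 and 2.39 in WT FBs (2.86, SE 0.59, adjusted p = 0.154). In both genes the WT sample WT-260 had the highest WT value. The 10 endothelial markers, none at 0 in any FB sample, likewise summed to more in every *Gadlor*-KO sample than in any WT sample and to more in sample WT-260 than in the other WT samples, with a median log2 fold change of 3.91 and 0 of 10 called. The cardiomyocyte markers summed to 224.9 to 382.7 CPM in *Gadlor*-KO and to 617.4, 21.6 and 47.5 CPM in the WT samples WT-260, WT-277 and WT-283. In ECs, *Mmp15* and *Timp4* were the fourth and the seventh highest members per kb. The other members ranked above *Timp4* there were *Timp3*, *Adamts1*, *Adam15*, *Timp2* and *Adamts4*. Their log2 fold changes in FBs were -0.10, 0.79, 0.60, -0.79 and 0.60. In bulk samples, a different number of cells of a type and a different amount of RNA per cell cannot be told apart, and the part of these markers in the FB values was not tested. *Timp1* (0.08, SE 0.31), *Timp3* (-0.10, SE 0.35), *Adam8* (-0.29, SE 0.31), *Adam10* (0.21, SE 0.16), *Adam17* (-0.14, SE 0.18) and *Adamts1* (0.79, SE 0.48) had overlapping groups.

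**Figure D3:**
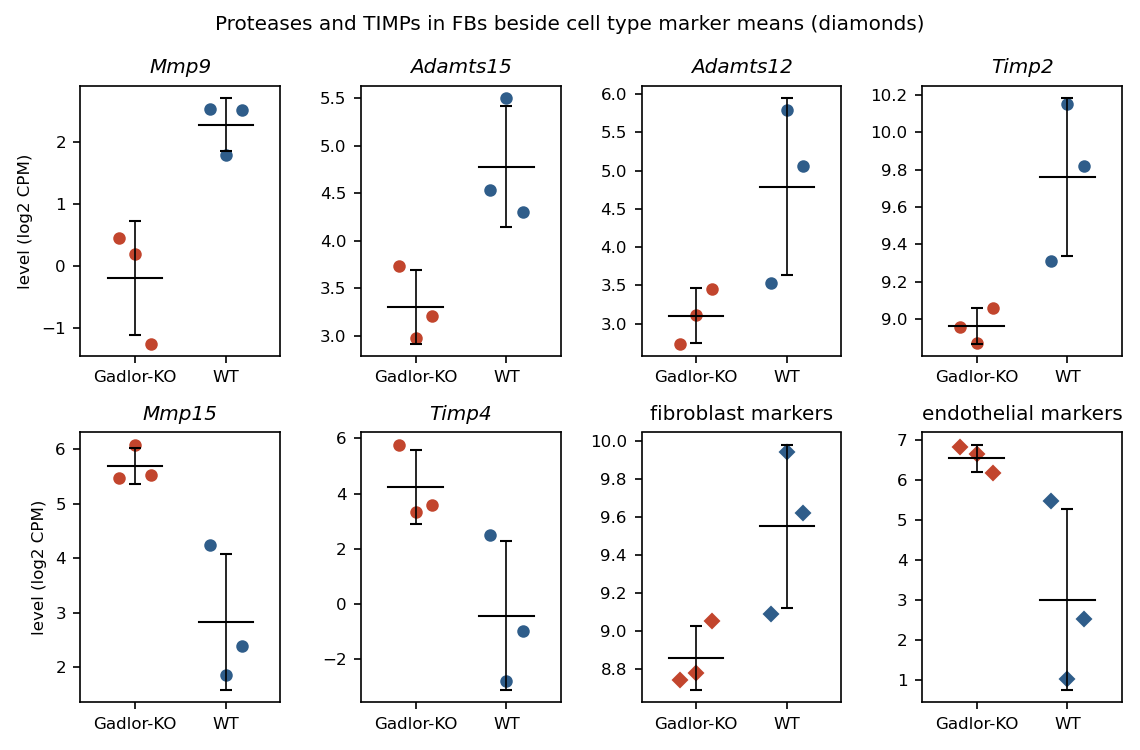
Level (log2 CPM) of 6 genes in FBs and, as diamonds, the mean over 10 fibroblast and 10 endothelial markers, with *Gadlor*-KO left and WT right (n = 3 each), a line at the mean and bars of 1 SD. *Mmp9*, *Adamts15*, *Adamts12* and *Timp2* lie lower in *Gadlor*-KO and *Mmp15* and *Timp4* higher, none past the thresholds, and the highest WT values of *Mmp15* (4.24) and *Timp4* (2.51) belong to sample WT-260.

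The WT sample WT-260 decided the FB counts. Without it, 11 members were lower and 2 higher past both thresholds, against 3.3% and 6.1% of all genes. The 2 were *Timp4* (log2 fold change 6.12, adjusted p = 0.0069) and *Mmp15* (3.57, adjusted p = 0.00118). The 11 were *Mmp9* (-2.35), *Mmp14* (-1.12), *Mmp23* (-1.11), *Timp2* (-1.02), *Adamts2* (-1.30), *Adamts3* (-1.71), *Adamts12* (-2.32), *Adamts14* (-1.31), *Adamts15* (-1.60), *Adamtsl1* (-2.03) and *Adamtsl4* (-0.79), with adjusted p from 0.00523 to 0.0482. This leaves 2 WT samples, both with far lower endothelial markers and mitochondrial shares, and higher fibroblast markers, than the *Gadlor*-KO samples, and the part of these in the calls was not tested. Of the 7 lists of related genes, 0 genes passed in FBs with all samples.

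In CMs most members were higher in *Gadlor*-KO, across every family. Of 42 members, 24 passed as higher (57.1%, against 21.3% of all genes) and 3 as lower (7.14%, against 19.6%). The median log2 fold change was 2.59 over the members and 0.15 over all genes. The 24 were 3 of 4 Timp, 6 of 9 Mmp, 9 of 14 Adamts, 2 of 5 Adamtsl and 4 of 10 Adam genes. All *Gadlor*-KO values lay above all WT values for 27 members (64.3%, against 31.1% of all genes) and below for 4 (9.52%, against 28.4%), so that 31 did not overlap (73.8%, against 59.5%). Of the members given values below, *Mmp23*, *Mmp24*, *Adam11*, *Adam12*, *Adam22*, *Adamtsl2* and the Adamts genes other than *Adamts1*, *Adamts2*, *Adamts4*, *Adamts8*, *Adamts10* and *Adamts14* were chosen after their values were seen.

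The samples labelled CM also differed in their cell type markers and in their mitochondrial share (65.1 to 75.6% in *Gadlor*-KO, 26.7 to 46.8% in WT), and the part of these in the protease values was not tested. Fibroblast markers summed to 2111.3, 3566.3 and 2665.2 CPM in *Gadlor*-KO CMs and to 114.1, 180.3 and 166.8 CPM in WT CMs, and their median log2 fold change was 4.37. Endothelial markers summed to 856.6 to 1993.2 CPM in *Gadlor*-KO and at most 387.3 CPM in WT (median 2.66), and macrophage markers to 334.4 to 1016.0 CPM in *Gadlor*-KO and 10.3 to 34.2 CPM in WT (median 4.54). No marker of these lists was at 0 in any CM sample. The 3 *Gadlor*-KO samples were not alike. Sample 1 had the highest macrophage markers (1016.0 CPM) and a mean of 6.62 over 7 epicardial markers, against 2.66 and 2.86 in samples 2 and 3, and lower fibroblast markers than either.

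Among the inhibitors, *Timp2* measured 8.58, 7.67 and 7.45 log2 CPM in *Gadlor*-KO CMs and 3.96, 4.48 and 4.85 in WT CMs (log2 fold change 3.47, SE 0.43, adjusted p = 0.00497). *Timp3* measured 7.24, 8.19 and 8.20 in *Gadlor*-KO CMs and 5.65, 5.38 and 3.35 in WT CMs (3.08, SE 0.67, adjusted p = 0.0125). Both were without overlap, and WT sample 6 was well below the other WT samples for *Timp3*. *Timp1*, the inhibitor induced by injury, rose by 2.41 (SE 0.52, adjusted p = 0.0111), a call that ended without the *Gadlor*-KO sample 2 (adjusted p = 0.0513). *Timp4* measured 3.08, 5.24 and 5.88 in *Gadlor*-KO CMs and 2.53, 3.12 and 2.83 in WT CMs and did not pass (1.91, SE 0.71, adjusted p = 0.0703), sample 1 lying within the WT range.

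Of the Mmp genes, *Mmp14* had the smallest p. It measured 5.37, 5.78 and 5.45 log2 CPM in *Gadlor*-KO CMs and 1.0, 1.93 and 1.99 in WT CMs, a difference many times the spread of either genotype (log2 fold change 3.89, SE 0.36, adjusted p = 0.00452). *Mmp2* measured 5.09, 7.97 and 7.67 in *Gadlor*-KO CMs and 3.38, 3.49 and 3.74 in WT CMs (3.37, SE 0.75, adjusted p = 0.0134). The *Gadlor*-KO sample 1, with its lower fibroblast markers, was the lowest of the *Gadlor*-KO samples for *Mmp2*. The others that rose were *Mmp17*, a membrane protease anchored by lipid (2.57, SE 0.42), *Mmp19* (2.70, SE 0.37), *Mmp23* (2.15, SE 0.61) and *Mmp28*, also called epilysin (2.16, SE 0.44). The *Mmp23* call ended without the *Gadlor*-KO samples 1 or 2 or the WT samples 1 or 2 (adjusted p = 0.078 to 0.0912). *Mmp15*, the highest Mmp gene of WT CMs, measured 5.44, 6.97 and 6.69 in *Gadlor*-KO CMs and 5.82, 5.76 and 6.61 in WT CMs (0.30, SE 0.50, adjusted p = 0.661). It made up 15.2 to 17.2% of the Mmp sum per kb in *Gadlor*-KO CMs and 51.1 to 55.6% in WT CMs. *Mmp24* was lower in every *Gadlor*-KO sample (2.01 to 2.59) than in every WT sample (2.78 to 3.75) without passing (-0.88, SE 0.39, adjusted p = 0.109).

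Of the Adamts genes, *Adamts2* and *Adamts14*, which process procollagens, rose by 3.18 (SE 0.39, adjusted p = 0.00497) and 3.09 (SE 0.50, adjusted p = 0.00642). *Adamts10*, a microfibril-binding protease, rose by 3.12 (SE 0.39, adjusted p = 0.00508). The proteoglycan-cutting *Adamts1*, *Adamts4*, *Adamts5*, *Adamts8* and *Adamts9* rose by 2.58, 3.14, 4.16, 2.60 and 3.08, and *Adamts15* gave -0.01 (SE 0.45). The *Adamts1* call ended without any 1 of the *Gadlor*-KO samples 1, 2 and 3 or the WT sample 1 (adjusted p = 0.0552 to 0.0982). The *Adamts5* call ended without the *Gadlor*-KO samples 1 or 2 (0.0705 and 0.0641), the *Adamts9* call without 2 or 3 (0.0751 and 0.0602) and the *Adamts8* call without 2 (0.0544), and on log2(CPM + 5) *Adamts8* (0.57) was under the fold threshold. *Adamts4* measured 1.10, 2.91 and 2.72 log2 CPM in *Gadlor*-KO CMs and -1.26, -0.31 and -1.12 in WT CMs, from 23 to 122 reads in *Gadlor*-KO and 6 to 14 reads in WT. *Adamts12* rose by 3.88 (SE 0.97) with 0 to 9 reads in WT, so the size of its fold depends on the floor of the deposited values, and its call ended without the *Gadlor*-KO samples 2 or 3 (adjusted p = 0.0758 and 0.058). *Adamts3*, *Adamts6*, *Adamts7*, *Adamts15* and *Adamts17* did not pass, with log2 fold changes of -0.31 to 0.64.

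Of the Adam genes, *Adam15* measured 6.75, 7.19 and 6.94 log2 CPM in *Gadlor*-KO CMs and 3.70, 4.27 and 4.29 in WT CMs (log2 fold change 2.87, SE 0.31, adjusted p = 0.00452). *Adam12*, a sheddase of HB-EGF, rose by 2.69 (SE 0.61), and *Adam23*, a catalytically inactive member that binds integrins and Lgi proteins, by 3.17 (SE 0.54), which had 2 to 7 reads in WT samples. On log2(CPM + 5) both were at 0.48, under the fold threshold, and the *Adam12* call also ended without the *Gadlor*-KO sample 2 (adjusted p = 0.0612). *Adam8* measured 3.40, 0.62 and 1.58 in *Gadlor*-KO CMs, from 116, 24 and 31 reads, and -1.48, -1.39 and -0.31 in WT CMs, from 5, 6 and 15 reads (2.93, SE 0.78, adjusted p = 0.0244). This call ended without the *Gadlor*-KO sample 3 or the WT samples 1 or 2 (adjusted p = 0.0551 to 0.0741) and on log2(CPM + 5), where the difference was 0.76 (adjusted p = 0.0624). Its highest value stood in the *Gadlor*-KO sample 1, the sample with the highest macrophage markers and with 17.1 CPM of the only neutrophil marker listed, against 2.4 and 2.9 CPM in samples 2 and 3. *Adam10* and *Adam17* measured 4.50 to 5.11 and 4.19 to 4.36 in *Gadlor*-KO CMs and -0.84 to 3.65 and 1.16 to 3.71 in WT CMs, and neither passed (2.84, SE 1.14, adjusted p = 0.0887, and 1.45, SE 0.68, adjusted p = 0.136). For both the WT sample 6 lay far below the other WT samples. Without it the differences were 1.41 and 0.62, with adjusted p of 0.00922 and 0.0279.

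The 3 members that fell in CMs all lack the zinc-binding site. *Adamtsl5*, the highest member per kb in WT CMs, measured 4.23, 3.84 and 4.73 log2 CPM in *Gadlor*-KO CMs and 6.10, 6.48 and 7.16 in WT CMs (log2 fold change -2.32, SE 0.40, adjusted p = 0.00685). *Adamtsl4* measured 4.46, 4.21 and 4.52 in *Gadlor*-KO CMs and 5.20, 5.02 and 5.82 in WT CMs (-0.95, SE 0.31, adjusted p = 0.0475). *Adam11*, an inactive relative known from the nervous system, measured 0.75, 0.83 and 1.34 in *Gadlor*-KO CMs and 2.06, 2.08 and 2.95 in WT CMs (-1.39, SE 0.41, adjusted p = 0.0324). None of the 3 overlapped between genotypes. Of the 30 members with the site, 18 rose (60.0%, against 21.3% of all genes) and 0 fell, against 19.6%. Of the 4 Timp genes, which also lack the site, 3 rose (75.0%) and 0 fell. Of the 8 Adamtsl and inactive Adam genes 3 rose (37.5%, *Adamtsl1*, *Adamtsl3* and *Adam23*) and 3 fell (37.5%). *Adamtsl2* was at 3.26 (SE 1.18, adjusted p = 0.0652) and *Adam22* at -1.37 (SE 0.87). No test was made of this split by the site, and only *Adamtsl5* still passed as lower with CPM computed over nuclear genes. The *Adamtsl1* call ended without the WT sample 1 (adjusted p = 0.0531) and on log2(CPM + 5) (1.07, adjusted p = 0.0799). The *Adamtsl3* call ended without the *Gadlor*-KO samples 2 or 3 (0.0715 and 0.057). The cardiomyocyte markers fell with *Adamtsl5*, *Adamtsl4* and *Adam11*, by a median of 4.33 on the log2 scale. The part of this in the values of these 3 members was not tested.

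**Figure D4:**
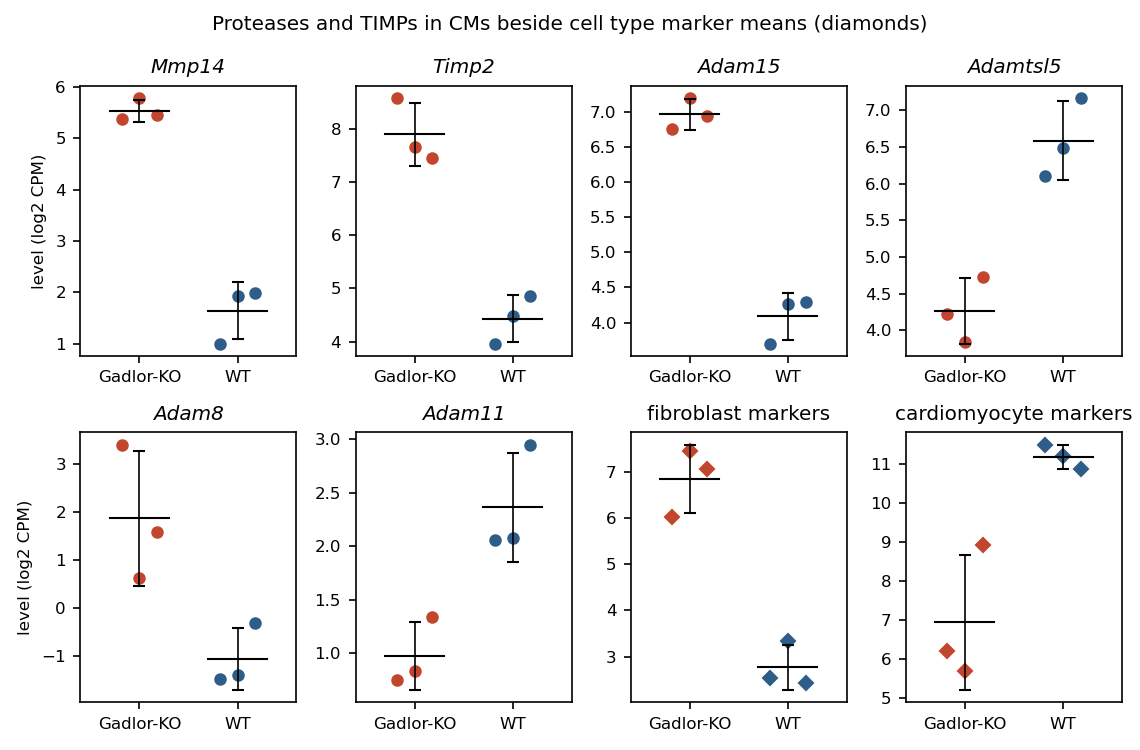
Level (log2 CPM) of 6 genes in CMs and, as diamonds, the mean over 10 fibroblast and 10 cardiomyocyte markers, with *Gadlor*-KO left and WT right (n = 3 each), a line at the mean and bars of 1 SD. *Mmp14*, *Timp2*, *Adam15*, *Adam8* and the fibroblast markers are higher in *Gadlor*-KO, and *Adamtsl5*, *Adam11* and the cardiomyocyte markers lower. Within *Gadlor*-KO, *Adam8* (3.40) and *Timp2* (8.58) are highest in sample 1, where the fibroblast marker mean is lowest (6.02).

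These CM calls depended on which samples and which scaling were used. Leaving out the *Gadlor*-KO sample 2 gave 15 members higher. Leaving out any of the *Gadlor*-KO samples 1, 2 and 3 or the WT samples 1 and 2 gave 1 lower, which was *Adamtsl5*, and leaving out the WT sample 6 gave 27 higher and 4 lower. With CPM recomputed over nuclear genes only, the median over all genes moved to 0.89, against 0.15, and 28 members were higher and 1 lower. The share of all calls that were higher was 74.6%, against 52.0%. *Adamtsl5* remained past the thresholds (-1.58, adjusted p = 0.00989), while *Adamtsl4* (-0.21, adjusted p = 0.434) and *Adam11* (-0.66, adjusted p = 0.149) did not. Leaving out the *Gadlor*-KO sample 1 and the WT sample 6 together, chosen after the data were seen, gave 32 higher and 5 lower. The share of all genes called in each of these other fits is not given here. The counts therefore do not show whether the members moved apart from other genes.

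Most of the related genes that passed in CMs were higher in *Gadlor*-KO, where 21.3% of all genes were called higher and 19.6% lower. Of 18 shed ligands and receptors 16 rose and 2 fell, of 9 other matrix proteases 7 rose, of 9 other protease inhibitors 6 rose, of 7 Adamts substrates 5 rose, of 6 genes of plasminogen activation 3 rose, and of 13 activators and partners 8 rose and 1 fell. *Thbs1* (5.57, SE 0.43), *Lrp1*, the receptor that clears proteases (3.79, SE 0.40), *Serping1*, an inhibitor of complement proteases (3.97, SE 0.41), and *Anpep*, a surface aminopeptidase (3.20, SE 0.32), were among those with the smallest adjusted p (each 0.00452). Of 13 cathepsins 5 rose, among them *Ctss*, a protease of macrophages (4.56, SE 0.72), *Ctsz* (2.22, SE 0.35) and *Ctsc* (2.45, SE 0.43). The genes that fell, named after their values were seen, were *Ctsd*, the main aspartic protease of lysosomes (-1.87, SE 0.52), and *Ctsf* (-1.20, SE 0.33) among the cathepsins, the partner *Bsg* (-2.50, SE 0.56), and *Hbegf* (-2.38, SE 0.61) and the cell adhesion protein *Cdh2* (-3.50, SE 0.70) among the shed proteins.

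Whether the genotype effect differed between the samples of the cell types was tested in a fit over all 20 samples. It took the 12157 genes in all 3 tables, with limma and a separate weight for each cell type. Cell type markers differed between genotypes in the CM and FB samples. The differences below and the make-up of these samples therefore cannot be told apart. Of 41 members, 23 differed between CMs and ECs at an adjusted p under 0.05, 22 with the larger value in CMs (53.7%, against 22.0% of all genes) and 1 with the smaller (2.44%, against 16.5%, and 38.4% of all genes in either direction). Between FBs and ECs 8 differed, 4 in each direction (9.76%, against 6.72% of all genes for the positive, 1.48% for the negative and 8.2% for either). Between CMs and FBs 17 differed, all larger in CMs (41.5%, against 16.6% of all genes, and 30.4% in either direction). These tests share samples, so their counts are not independent of each other. They also moved with the fit: 12 in place of 23 differed between CMs and ECs without the *Gadlor*-KO CM sample 2, and 10 in place of 17 between CMs and FBs. Between FBs and ECs, 4 or 5 in place of 8 differed when any of the *Gadlor*-KO FB samples or the WT FB samples WT-277 or WT-283 was left out. Between CMs and FBs 29 differed without the WT CM sample 6. The shares of all genes that differed in these other fits are not given here. Under nuclear scaling the median difference over all genes was 0.91 between CMs and ECs and 0.73 between CMs and FBs, against 0.21 and 0.12, and 83.0% and 80.3% of all calls were positive, against 57.2% and 54.6%.

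*Adamts4* had the largest difference between CMs and ECs, 5.21 (SE 1.20, adjusted p = 0.00275), with log2 fold changes of 3.14 in CMs and -2.07 in ECs. *Adamts1* (3.89, SE 0.85, adjusted p = 0.00191), *Adam8* (4.18, SE 1.19, adjusted p = 0.0107), *Adamtsl1* (4.79, SE 0.94, adjusted p = 0.000933) and *Adamts8* (3.20, SE 1.13, adjusted p = 0.0332) likewise fell in the EC samples and rose in the CM samples. In the CM samples *Adamtsl1* was read from 227, 40 and 25 reads in *Gadlor*-KO and 2, 7 and 8 reads in WT. The CM calls of *Adamts1*, *Adam8*, *Adamtsl1* and *Adamts8* each ended in other fits given above. Only *Adamtsl5* of the 41 passed with a smaller value in CMs than in ECs (-2.08, SE 0.55, adjusted p = 0.00662). The EC decrease of *Adamts1* and *Adamts4* was also set apart from FBs, where the groups overlapped, by 2.09 (SE 0.45, adjusted p = 0.00615) and 2.67 (SE 0.63, adjusted p = 0.0122). Part of the size of both rested on the WT sample WT-260, which was the lowest FB sample for each. Without it the log2 fold changes in FBs were 0.22 for *Adamts1* and -0.32 for *Adamts4*, against 0.79 and 0.60, and the differences from ECs were 1.52 (adjusted p = 0.00438) and 1.75 (adjusted p = 0.00787). *Timp4* (4.30, SE 1.09) and *Mmp15* (2.86, SE 0.46) were the other positive differences between FBs and ECs. The negative ones were *Adamts15* (-1.73), *Adamts12* (-1.99), *Adamtsl4* (-1.11) and *Mmp19* (-0.89). Endothelial markers of the FB samples also differed between genotypes, and their part in these differences was not tested. The procollagen N-proteinases *Adamts2* (4.04, SE 1.19) and *Adamts14* (4.15, SE 1.12), *Mmp14* (4.62, SE 1.06) and *Timp2* (4.26, SE 0.62) differed between CMs and FBs, each with a positive value in CMs and a negative one in FBs.

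**Figure D5:**
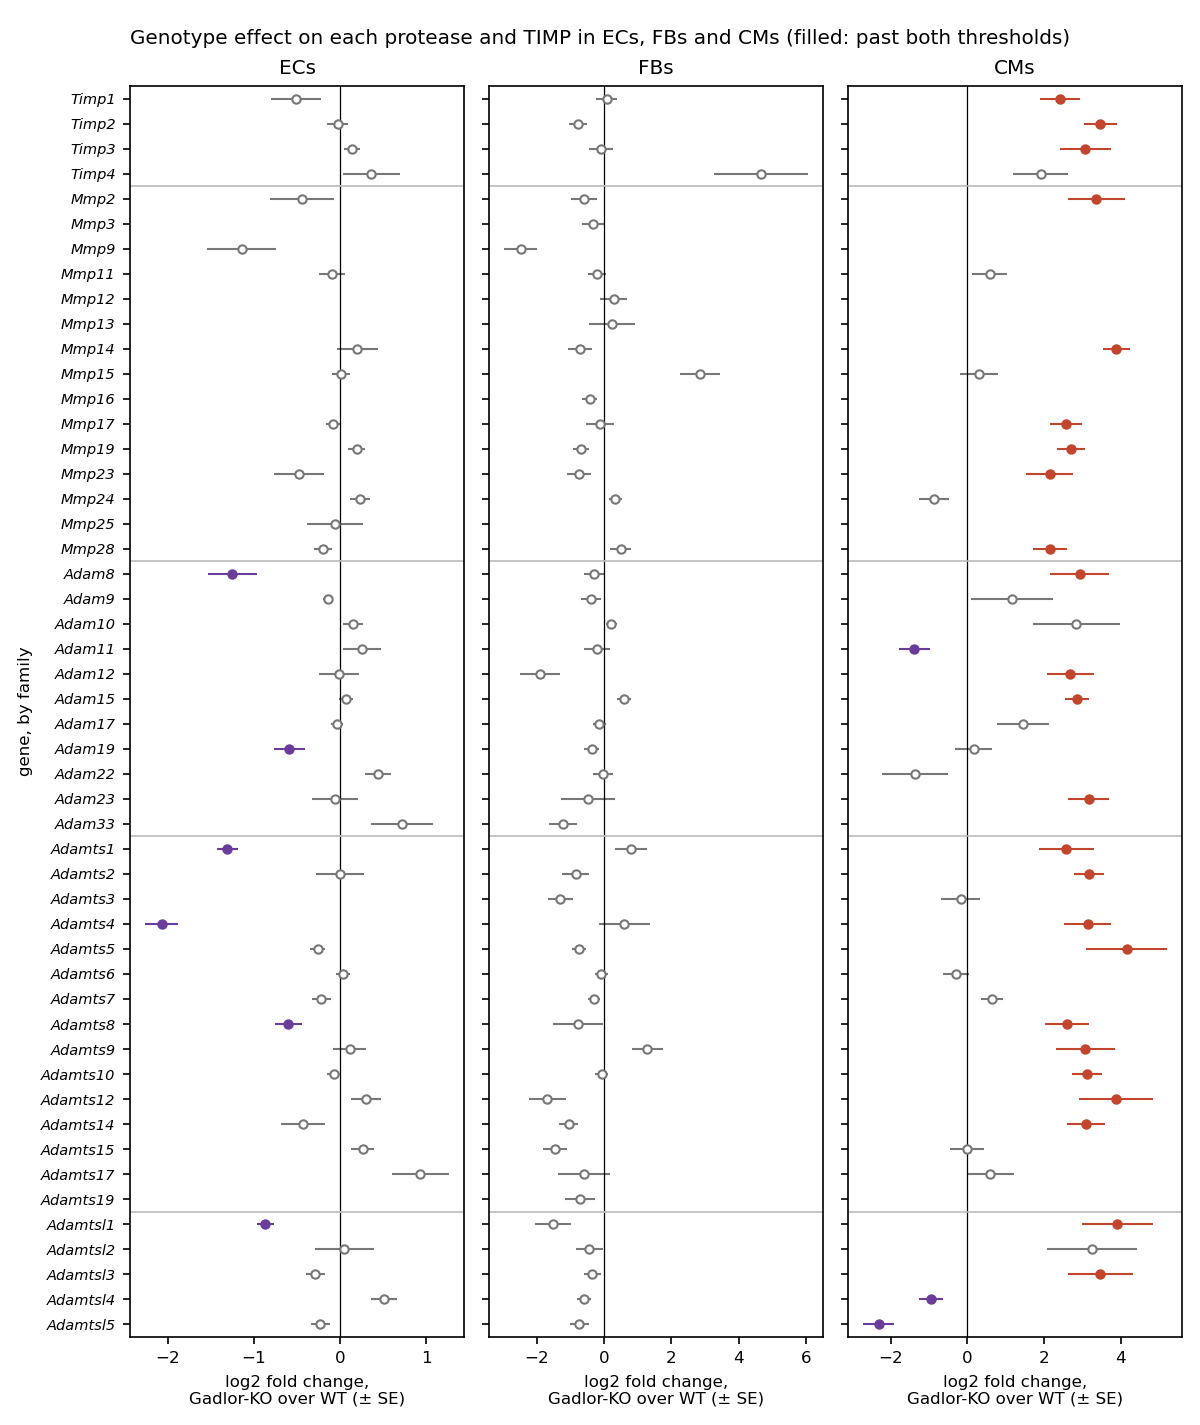
Genotype effect (log2 of *Gadlor*-KO over WT, with its SE) for each gene (rows, by family) in ECs (n = 4 per genotype), FBs and CMs (n = 3 per genotype), filled where past both thresholds, with a scale of its own for each cell type. In ECs 6 filled points lie left of 0, in FBs 0 are filled, and in CMs 24 filled points lie right and 3 left of 0.

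Some of these transcripts share exon bases with genes on the opposite strand in GENCODE vM21, and the sources used here do not state whether reads were counted by strand. The largest shares were 36.7% of *Timp3* with *Syn3*, 25.4% (the transcript used in ECs) or 24.7% (that used in FBs and CMs) of *Adam15* with *4731419I09Rik* and 23.2% of *Mmp19* with *Tmem198b*. Among the genes that fell in ECs, *Adamts8* shared 13.5% with *Gm29724*, *Adam19* 9.2% with *Gm16033* and *Adam8* 1.5% with *Gm16201*, and the list is not complete.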

How the data were processed

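The deposited tables hold log2 CPM per Ensembl transcript, made by the authors from stranded, single-end 50-base mRNA reads aligned to mm10 with bowtie2, and each table was normalized on its own. The methods name edgeR and the submitters' processing notes DESeq2, without versions. The authors' own fold changes, p-values and FDRs in these tables were not used. The steps of the low values gave whole reads for 100.0% of them, within 0.05 read, which set the effective library sizes and the read numbers printed.

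Each genotype comparison was fitted with limma 3.58.1 (R 4.3.3, trend and robust options) on all genes of a table, with Benjamini-Hochberg adjustment, and called at an adjusted p under 0.05 and a fold above 1.5. Differences between cell types were fitted over 20 samples with a weight per cell type (EC 3.858, FB 0.81, CM 0.204) and called at an adjusted p under 0.05. The scripts were tested on simulated data. Figures were drawn with matplotlib 3.10.9.

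Named members were the called ones (at most 15 per table by adjusted p), a set of 11 known genes and the 3 highest per kb in WT. From each related list at most 3 called genes were named. Members and lists were chosen with earlier results of these data known. Alternatives were a pseudocount of 5 CPM, a mean of at least 1 CPM, other scalings, transcript means, sex as a covariate, samples left out and voom on recovered reads. The deleted *Gadlor* genes are not annotated in the tables, so the deletion itself was not analysed here.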

Additional observations from a re-analysis of the deposited data

Results flagged for a closer look

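The following members had a genotype effect that differed between cell types by the interaction test in limma, at an adjusted p under 0.05. Each value is the genotype effect (log2, *Gadlor*-KO over WT) in the cell type named first, minus that in the cell type named second.

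Between CMs and ECs the positive differences were *Adamts4* (5.21), *Adamtsl1* (4.79), *Adamts5* (4.42), *Adam8* (4.18), *Adamts1* (3.89), *Mmp2* (3.81), *Adamtsl3* (3.76), *Mmp14* (3.70), *Adamts12* (3.58), *Adamts14* (3.51), *Timp2* (3.51), *Adamts8* (3.20), *Adamts2* (3.19), *Adamts10* (3.19), *Adamts9* (2.97), *Timp3* (2.94), *Adam15* (2.80), *Adam10* (2.68), *Mmp17* (2.65), *Mmp19* (2.51), *Mmp28* (2.36) and *Adam17* (1.48). The negative one was *Adamtsl5* (-2.08).

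Between FBs and ECs the positive differences were *Timp4* (4.30), *Mmp15* (2.86), *Adamts4* (2.67) and *Adamts1* (2.09). The negative ones were *Adamts12* (-1.99), *Adamts15* (-1.73), *Adamtsl4* (-1.11) and *Mmp19* (-0.89).

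Between CMs and FBs the differences, all positive, were *Adamts12* (5.57), *Adamtsl1* (5.44), *Adamts5* (4.91), *Mmp14* (4.62), *Adam12* (4.59), *Timp2* (4.26), *Adamts14* (4.15), *Adamts2* (4.04), *Adamtsl3* (3.82), *Mmp19* (3.39), *Adamts8* (3.37), *Adamts10* (3.19), *Timp3* (3.18), *Mmp17* (2.69), *Adam10* (2.63), *Adam15* (2.27) and *Adam17* (1.58). In the CM samples fibroblast, endothelial and macrophage markers were higher and cardiomyocyte markers lower in *Gadlor*-KO, and in the FB samples endothelial markers were, so that these differences and the make-up of the samples cannot be told apart.

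Of 32 groups of 4 EC samples examined, 2 had a sample far from the others. *Adamtsl1* was at 4.10 log2 CPM in the WT sample 32, against 4.29 to 4.32 in the other WT ECs, and *Timp4* at 5.86 in the WT sample 35, against 6.93 to 7.14. Chance alone sets apart about 1 in 20 such groups, and groups of 3 were not examined.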

How the results depend on the processing

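In ECs 1 member was higher without the fold threshold, and in females only 2 were higher and 2 lower. With a pseudocount of 5 CPM 3 were lower. Leaving out each sample in turn gave 0 to 2 higher and 4 to 6 lower in ECs, 0 to 2 higher and 0 to 11 lower in FBs, where only leaving out the WT sample WT-260 gave any, and 15 to 27 higher and 1 to 4 lower in CMs. Nuclear scaling gave 1 lower in CMs, and leaving out the *Gadlor*-KO sample 1 and the WT sample 6 together 5 lower. Members whose effect differed numbered 12 to 32 between CMs and ECs, 4 to 11 between FBs and ECs and 10 to 29 between CMs and FBs as single samples were left out. Nuclear scaling gave 5 between FBs and ECs and 26 between CMs and FBs, and a fit without weights 2 and 30. Except for FBs without the WT sample WT-260, the share of all genes called in each of these fits is not given here. The counts therefore do not show whether the members moved apart from other genes. The cause of these shifts was not tested.

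Some members that never passed changed sign. *Timp2* in ECs was at 0.01 under nuclear scaling, -0.13 to 0.07 as samples were left out, positive without the *Gadlor*-KO sample KO-131 and 0.04 in males only. *Timp4* and *Adam10* in ECs were at -0.35 and -0.13 in males only, *Mmp14* in ECs ranged over -0.05 to 0.36 as samples were left out, being negative without the WT sample 34, and *Adam17* in ECs at 0.00 under nuclear scaling. With samples left out, *Timp1* in FBs ranged over -0.26 (without WT-260) to 0.38 and *Timp3* in FBs over -0.37 to 0.21 (positive without KO-241 at 0.01 and without WT-277 at 0.21), and *Timp3* was at 0.03 under nuclear scaling. *Adam8* in FBs ranged over -0.47 to 0.05 (without KO-242).

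The CM labels share the numbers 1 and 2. The difference between samples 1 and 2 in *Gadlor*-KO correlated with that in WT at 0.015 over 12510 genes. With 2 pairs, whose samples also differ in cell type markers, this cannot decide whether equal numbers mean a shared preparation. With a replicate block on these 4 samples 25 members were higher and 4 lower, against 26 and 4 without the block, and *Mmp2* was at 3.09 (limma adjusted p = 0.0606). The share of all genes called in either fit is not given here.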
